A study of Canis lupus familiaris with 29 samples.

Results

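MDCKII cells, an established dog kidney epithelial line that forms a polarised sheet on a porous support, were compared directly between 2 knockdowns, of DENND5A and of AVL9, after 4 days on transwell inserts. The comparison rests on 4 of the 29 RNA-seq libraries of the series. They come from the lines named DENND5A-KD1 and DENND5A-KD2 on one side and AVL9-KD1 and AVL9-KD4 on the other. A gene entered the comparison when it had at least 1 FPKM in at least 2 of these 4 libraries, which 10965 of the 24223 genes in each file had. FPKM counts sequenced fragments scaled to gene length and to the number of mapped fragments in the library.

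The DENND5A-KD lines were also sequenced at seeding (day 0) and after 7 days on inserts, and the AVL9-KD lines at day 0. All cells were MDCKII grown in the same serum-containing medium, and the inserts were kept until the sheet was over-confluent. The labels give the genotype as a knockdown and do not say how it was made, whether the number after KD marks a clone, a hairpin or a guide, or whether the cultures were separate. No line treated alike without a knockdown is labelled, so the 3 wild-type (WT) day 4 libraries are shown only as a background and enter no test. The p-values below therefore measure the spread between these lines and libraries, with 2 lines per knockdown.

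Both targets belong to the DENN domain family. DENN domain proteins switch on RAB GTPases by exchanging their bound nucleotide, and the active RABs then steer vesicles between the Golgi, endosomes and the cell surface. DENND5A binds RAB6 at the Golgi and acts on the RAB39 proteins. AVL9 is named after a yeast protein of the late secretory route and is less well understood. In a kidney epithelium these routes carry proteins to the apical and basolateral faces, and cells that reach confluence on a support usually leave the cell cycle as the sheet matures.

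Each knockdown was seen in its own libraries. DENND5A had 3.36 and 4.29 FPKM in DENND5A-KD1 and DENND5A-KD2, against 13.15 and 13.01 in AVL9-KD1 and AVL9-KD4. The WT libraries had 10.2 to 10.9 FPKM. AVL9 had 6.35 and 3.89 FPKM in AVL9-KD1 and AVL9-KD4, against 23.2 and 22.3 in DENND5A-KD1 and DENND5A-KD2, with 17.9 to 25.1 in WT. Neither pair overlapped the other for either gene, and each target was lowered only in the libraries labelled for it. On log2(FPKM + 1), the scale of all differences below, DENND5A was lower in DENND5A-KD by 1.55 (difference -1.55 ± 0.13 SE, adjusted p = 0.0014, limma). AVL9 differed by 1.99 ± 0.19 (adjusted p = 0.0021). Both targets also kept their call without the DENND5A-KD1 library, and their p-values are a check of the labels.

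Across all genes the 2 knockdowns differed widely, and most called genes were lower in DENND5A-KD. At an adjusted p under 0.05, 1859 genes were called, 17.0% of those tested: 308 higher in DENND5A-KD (2.81%) and 1551 lower (14.1%). In 345 of them the difference was at least 1 on the log2 scale, 146 higher and 199 lower. The median difference of all tested genes was itself -0.25, so a gene at -0.25 stands where the typical gene stands. Quantile normalization and median-ratio scaling of the FPKM moved that median to -0.02 and -0.01, and the split of calls turned: 656 higher and 607 lower under the first, 586 higher and 399 lower under the second. Called in the same direction under all 3 scalings were 697 genes (6.36%), 298 higher (2.72%) and 399 lower (3.64%); the count of a list under all 3 scalings is given beside its count as deposited.

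As deposited, the typical gene differed more between knockdowns than between lines of one knockdown. The first difference is between means of 2 libraries and the second between single libraries. The 2 DENND5A-KD lines differed by a median of 0.19 in size and by 1 or more in 152 genes (1.39%). The 2 AVL9-KD lines differed by a median of 0.22 in size and by 1 or more in 445 genes (4.06%). Between the knockdowns the median size was 0.31, with 442 genes (4.03%) at 1 or more, a share no larger than between the AVL9-KD lines. These sizes include the shift of all genes. Its median was -0.25 between the knockdowns, -0.16 between the DENND5A-KD lines and 0.02 between the AVL9-KD lines. Whether the typical gene differs more between knockdowns once that shift is removed was not tested. The values of the 2 groups did not overlap in 6824 genes, 62.2% of those tested (9.49% higher and 52.7% lower in DENND5A-KD), so a lack of overlap is common here. Summed FPKM was lowest in DENND5A-KD1 at 276666, with 324070 in DENND5A-KD2, 348691 in AVL9-KD1 and 333626 in AVL9-KD4. Relative to DENND5A-KD2, the depth read from the steps of low FPKM values was 0.92, 1.62 and 0.529 in DENND5A-KD1, AVL9-KD1 and AVL9-KD4, which makes low genes least precise in AVL9-KD4.

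DENND5A-KD1 carried much of the count of calls. Without it, and with DENND5A-KD2 assumed to vary like the other groups, 28 genes were called (0.255%). Without DENND5A-KD2 the count was 1838, without AVL9-KD1 1177 and without AVL9-KD4 850. The median difference of all genes was -0.16 without DENND5A-KD1 and -0.33 without DENND5A-KD2. P-values were adjusted over all tested genes, so the calls of any list without a library move with the total count. When the 4 libraries were fitted alone, with 2 residual degrees of freedom, 1 gene was called, while 2826 had an unadjusted p under 0.05; that gene, a 5S ribosomal RNA entry with no symbol of its own, was identified after its value was seen.

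**Figure D1:**
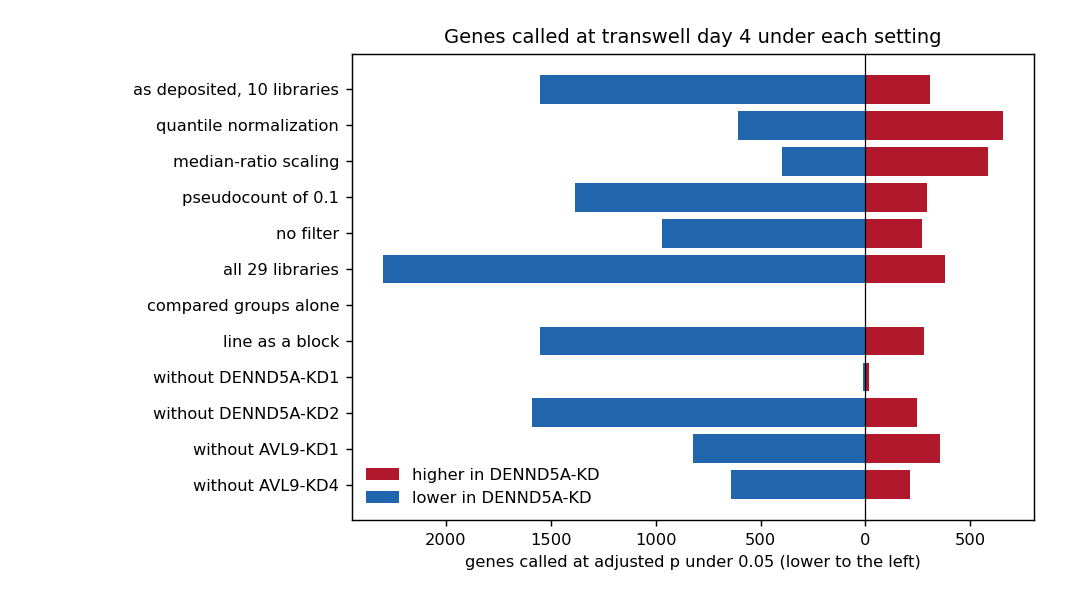
Number of genes called at an adjusted p under 0.05 (horizontal axis) under each processing setting (vertical axis), split into genes higher in DENND5A-KD (right, red) and lower (left, blue). Lower calls outnumber higher ones as deposited, 1551 against 308, the split turns under both scalings, and the bar without DENND5A-KD1 holds 28 genes.

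The clearest group difference was in mitosis genes, which were higher in DENND5A-KD. Of 22 tested genes of spindle, chromosome and mitotic kinase function, 21 were called higher and none lower, as deposited and in all 3 scalings, against a background of 2.81% of all genes. Their median difference was 1.65, beside -0.25 for all genes, and the members ranged from 0.63 to 2.23. AURKB, the kinase of the chromosomal passenger complex, was the member not called (0.63), and it was looked up after its value was seen. In bulk RNA, more cells in division and more of these transcripts per dividing cell cannot be told apart.

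All 22 tested mitosis genes had both DENND5A-KD libraries above both AVL9-KD libraries, beside 9.49% of all genes. BUB1, a spindle checkpoint kinase, had 24.4 and 14.6 FPKM in DENND5A-KD1 and DENND5A-KD2 against 5.54 and 1.75 in AVL9-KD1 and AVL9-KD4 (2.23 ± 0.37, adjusted p = 0.012). MKI67, the gene of the proliferation antigen Ki-67, had 20.5 and 10.4 against 4.10 and 1.96 (2.01 ± 0.32, adjusted p = 0.011). BIRC5, which encodes survivin of the passenger complex, had 45.3 and 31.1 against 12.97 and 9.96 (1.64 ± 0.19, adjusted p = 0.0055). In each of the 3, DENND5A-KD1 was the highest library and AVL9-KD4 the lowest, so the libraries within a knockdown differed as well. Each line had a single library at day 4, so a difference between lines cannot be told from one between libraries. The same order held for PRC1, which bundles microtubules of the central spindle, for CDC20, the activator of the anaphase-promoting complex, and for KIF11, the motor that separates the spindle poles; their differences were 1.75, 1.45 and 1.62, with adjusted p of 0.0055, 0.0084 and 0.0091.

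Cell cycle genes outside the list also stood among the 12 largest higher differences. MAD2L1, the checkpoint protein that restrains CDC20, had 31.3 and 21.1 FPKM in DENND5A-KD against 4.85 and 5.15 in AVL9-KD (2.15 ± 0.18, adjusted p = 0.0014). CCNA2, the cyclin of S phase and early mitosis, had 24.6 and 15.0 against 5.57 and 2.48 (2.08 ± 0.31, adjusted p = 0.010). CCNB2, a B-type cyclin within the list, had 19.3 and 10.6 against 3.70 and 2.09 (2.01 ± 0.31, adjusted p = 0.011). The rule that named these 12 genes required that no library of one knockdown overlap the other, so their lack of overlap is no separate result. The mitotic genes CKAP2L and DLGAP5, which act on spindle microtubules, differed by 2.13 and 2.05 with adjusted p of 0.0056 and 0.0084.

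The list mean showed where the WT cells and the other days lie. Averaged over the 22 mitosis genes, log2(FPKM + 1) was 4.12 and 3.50 in DENND5A-KD1 and DENND5A-KD2 at day 4, and 2.58 and 1.91 in AVL9-KD1 and AVL9-KD4. The WT day 4 libraries lay at 2.80, 2.61 and 2.26, below both DENND5A-KD libraries, and 1 of them lay within the AVL9-KD range. Against the same WT libraries, so not independently, the members' median difference was 1.31 for DENND5A-KD and -0.36 for AVL9-KD, beside -0.03 and 0.20 for all genes. Without the first WT library, the shallowest of them (relative depth 0.467), the members' medians were 1.45 and -0.20. At day 0 all 4 lines lay between 4.85 and 5.01. At day 7 the DENND5A-KD lines were at 2.69 and 2.97, with a median difference of -0.98 from day 4 (0.04 for all genes), which was not tested. DENND5A-KD1 was thus above DENND5A-KD2 at day 4 and below it at day 7. The lines were thus alike at seeding, and the day 4 libraries of DENND5A-KD lay between the day 0 and day 7 levels.

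Without DENND5A-KD1 the mitosis median was 1.36 and 1 member was called, and without AVL9-KD4 it was 1.34 with 18 called. Without DENND5A-KD2 it was 1.95 with 21 called. The direction was the same in both lines. The fall in calls without DENND5A-KD1, the highest library for this list, was also seen across all genes. How far this list rests on that library was not tested.

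Genes of DNA replication and nucleotide synthesis were higher in DENND5A-KD too, by less. Of 27 tested, 16 were called higher and none lower, as deposited and in all 3 scalings, with a median difference of 0.65 and a range from -0.44 to 1.63. The shares of all genes called higher were 2.81% as deposited and 2.72% in all 3 scalings. UHRF1, which keeps DNA methylation through replication, had 14.6 and 12.9 FPKM in DENND5A-KD1 and DENND5A-KD2 against 3.19 and 4.37 in AVL9-KD1 and AVL9-KD4 (1.63 ± 0.16, adjusted p = 0.0021). MCM5, a subunit of the replicative helicase, had 18.4 and 17.9 against 7.82 and 6.25 (1.26 ± 0.13, adjusted p = 0.0029). MCM2, of the same helicase, had 12.3 and 12.99 against 5.56 and 6.00 (1.01 ± 0.12, adjusted p = 0.0056). Within each knockdown these 3 genes varied little, and the groups were well apart. POLE, the catalytic subunit of DNA polymerase epsilon, differed by 1.11 (adjusted p = 0.012).

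Unlike the mitosis list, the replication list had nearly equal means in both DENND5A-KD lines, 3.73 and 3.69, against 3.21 and 2.92 in AVL9-KD and 2.69 to 3.11 in WT. At day 0 the 4 lines had 4.75 to 5.01, and at day 7 the DENND5A-KD lines 3.14 and 3.28. The count of 16 became 2 without DENND5A-KD1, with a median of 0.64, 11 without DENND5A-KD2 and 7 without AVL9-KD4.

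**Figure D2:**
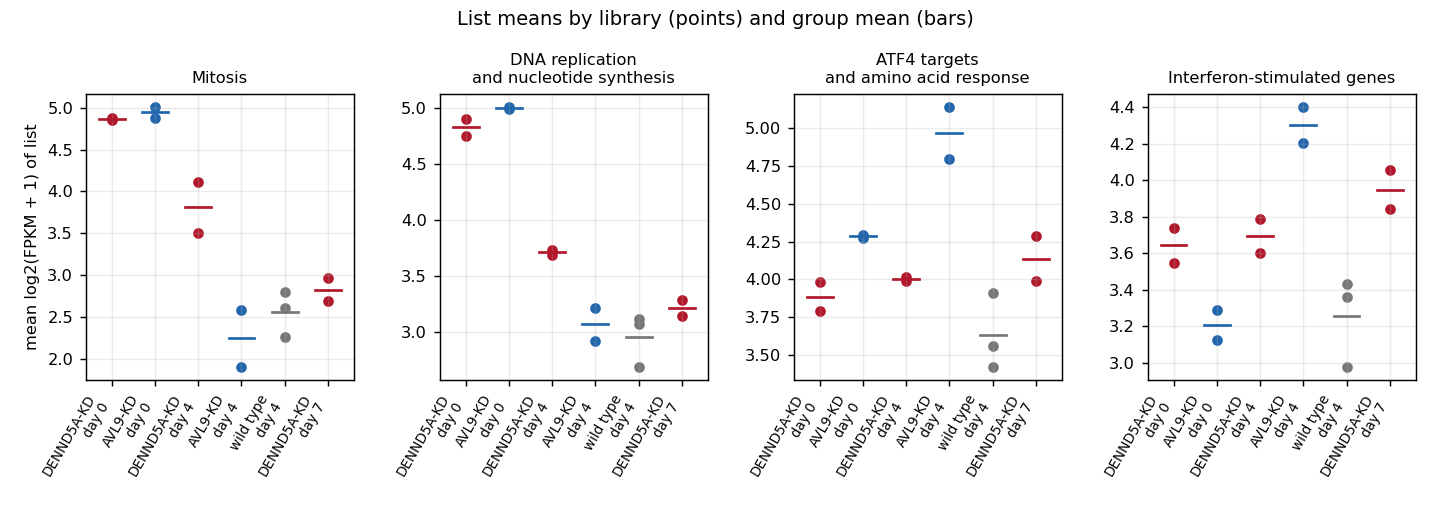
Mean log2(FPKM + 1) over the tested members of 4 gene lists (vertical axis) in each library of DENND5A-KD (red), AVL9-KD (blue) and WT (grey) by day; points are libraries and bars the group mean. The mitosis means lie within 4.85 to 5.01 at day 0 and separate at day 4 into 3.50 to 4.12 for DENND5A-KD and 1.91 to 2.58 for AVL9-KD.

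CDK inhibitors and D cyclins did not move as one group. Of 12 tested, 2 were called higher and 3 lower, and 1 in each direction in all 3 scalings. Among all genes 2.81% were called higher and 14.1% lower, and 2.72% and 3.64% in all 3 scalings. CDKN2C, the p18 inhibitor of CDK4 and CDK6, had 5.24 and 3.99 FPKM in DENND5A-KD against 2.29 and 2.38 in AVL9-KD (0.74 ± 0.15, adjusted p = 0.019). CCND3, a D-type cyclin, had 18.0 and 21.6 against 31.8 and 30.6 (-0.63 ± 0.13, adjusted p = 0.021). CDKN1A, the p21 inhibitor, had 4.26 and 5.28 against 9.63 and 17.7 (-1.29 ± 0.29, adjusted p = 0.025), and its adjusted p was 0.054 under median-ratio scaling. One inhibitor was thus higher and another lower beside the higher mitosis genes.

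Several genes without a cell cycle role were also much higher in DENND5A-KD. FAM171A1, a membrane protein linked to cell shape, had 6.07 and 5.98 FPKM in DENND5A-KD1 and DENND5A-KD2 and 0.0766 and 0.383 in AVL9-KD1 and AVL9-KD4 (2.53 ± 0.17, adjusted p = 0.00049). WT had 3.42 to 4.37, so the AVL9-KD libraries were the ones that stood apart. LNPEP, an aminopeptidase of recycling vesicles, had 5.72 and 4.69 against 0.549 and 0.431 (2.05 ± 0.14, adjusted p = 0.00049), and WT had 0.630, 5.44 and 5.71. One WT library was thus as low as AVL9-KD.

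CTSK, the collagen-degrading lysosomal protease cathepsin K, had 44.4 and 40.3 FPKM in DENND5A-KD against 8.95 and 5.16 in AVL9-KD (2.47 ± 0.20, adjusted p = 0.0010). WT lay between them at 11.3 to 16.1. TP53I11, named as a p53-induced gene, had 8.08 and 4.30 against 0.480 and 0.426 (2.26 ± 0.26, adjusted p = 0.0051), with 0.108 to 0.710 in WT, so here DENND5A-KD stood apart. TMEM258, a subunit of the oligosaccharyltransferase of the endoplasmic reticulum, had 9.26 and 13.2 against 0.391 and 1.30 (2.75 ± 0.40, adjusted p = 0.0090). Its WT libraries ran from 1.40 to 11.9, across nearly the whole span of both knockdowns.

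**Figure D3:**
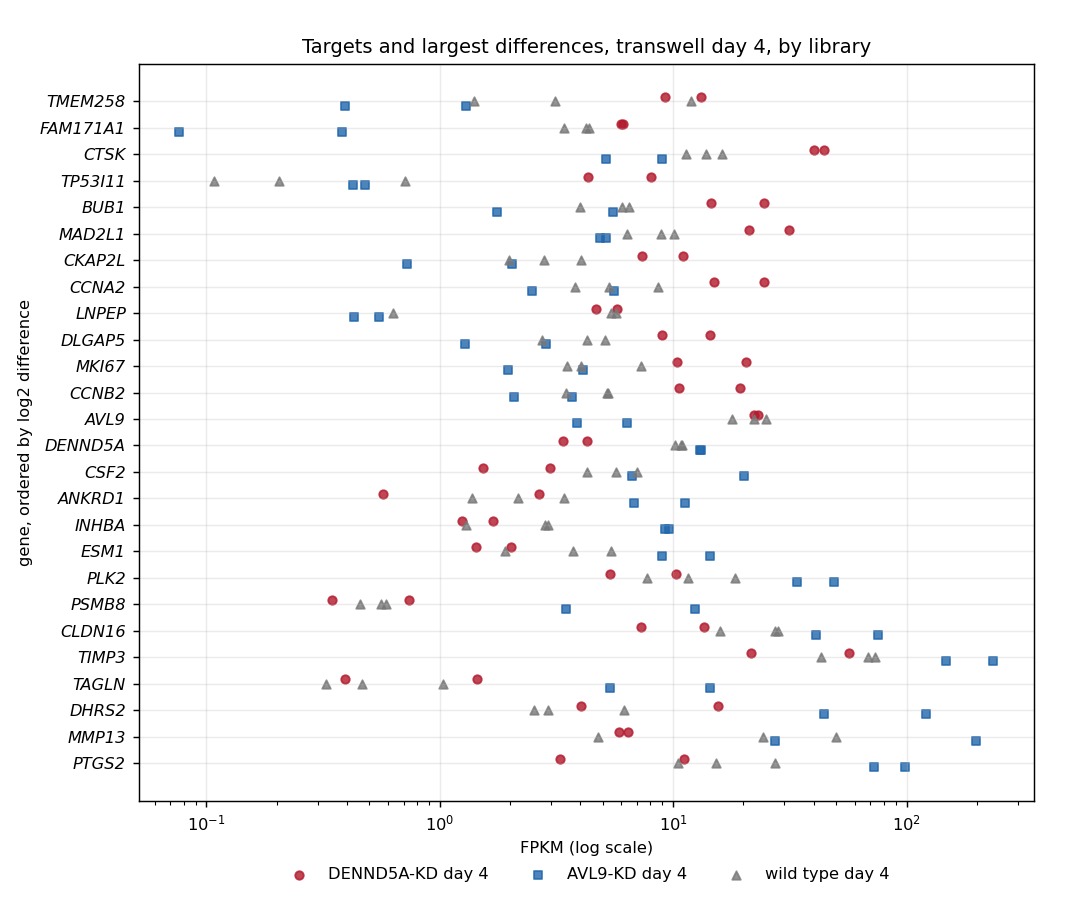
FPKM on a log axis (horizontal) of DENND5A, AVL9 and the 12 largest differences in each direction (vertical, ordered by difference), 1 point per day 4 library of DENND5A-KD (red circles), AVL9-KD (blue squares) and WT (grey triangles). Knockdown libraries do not overlap for any gene shown, and WT lies at the DENND5A-KD level for some genes, such as PSMB8, and at neither for others, such as CTSK.

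Targets of ATF4, the transcription factor of the integrated stress response to amino acid shortage, were lower in DENND5A-KD than in AVL9-KD. Of 26 tested, 17 were called lower and none higher, 9 of them in all 3 scalings, against a background of 14.1% and 3.64%. The median difference was -0.75, beside -0.25 for all genes, and every member lay between -1.97 and -0.45. FGF21, a hormone secreted under metabolic stress, had 0.969 and 1.19 FPKM in DENND5A-KD1 and DENND5A-KD2 against 5.74 and 8.88 in AVL9-KD1 and AVL9-KD4 (-1.97 ± 0.28, adjusted p = 0.0085). DDIT4, an inhibitor of mTORC1, had 8.06 and 7.64 against 36.3 and 23.6 (-1.78 ± 0.22, adjusted p = 0.0056). These genes were several-fold apart with close values in the DENND5A-KD pair.

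STC2, a secreted glycoprotein of the same response, had 1.17 and 1.88 FPKM against 6.49 and 7.29 (-1.65 ± 0.21, adjusted p = 0.0064). MTHFD2, a mitochondrial enzyme of folate metabolism, had 18.4 and 17.1 against 55.1 and 42.5 (-1.40 ± 0.19, adjusted p = 0.0084). For all 4 genes WT was nearer to DENND5A-KD, with 0.241 to 1.26, 4.32 to 7.52, 0.676 to 1.32 and 8.05 to 15.8 FPKM in the order named. The list mean was 3.99 and 4.018 in DENND5A-KD, 5.14 and 4.79 in AVL9-KD and 3.43 to 3.91 in WT. Against the shared WT libraries the members' median difference was 0.32 for DENND5A-KD and 1.18 for AVL9-KD.

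At day 0 the ATF4 list had a median difference of -0.39 (-0.12 for all genes) with 1 member called lower. The list means there were 3.79 and 3.98 in DENND5A-KD and 4.29 and 4.27 in AVL9-KD, so the order of the groups was the same at seeding. Without DENND5A-KD1 no member was called at day 4, although the median was -0.84, and without AVL9-KD1 10 were called.

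The unfolded protein response and chaperone list covers a related stress programme of the endoplasmic reticulum. Of 17 tested, 8 were called lower as deposited, against 14.1% of all genes, and none in all 3 scalings. The median was -0.40, and -0.13 under both other scalings. HERPUD1, a component of the degradation machinery of that compartment, had 21.4 and 27.7 FPKM in DENND5A-KD against 49.0 and 43.0 in AVL9-KD (-0.89 ± 0.18, adjusted p = 0.019), and its adjusted p was 0.051 and 0.062 under the other scalings. EDEM1, SEL1L and ATF6, which sense or clear misfolded proteins, differed by -0.77, -0.61 and -0.67 and were not called under either.

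Part of the interferon-stimulated genes were lower in DENND5A-KD at day 4, whereas at day 0 the 1 called member was higher. Of 27 tested, 8 were called lower and none higher, 3 in all 3 scalings, with a median of -0.58. For all genes the shares called lower were 14.1% and 3.64%, and the median was -0.25. DDX58, the viral RNA sensor RIG-I, had 9.05 and 9.90 FPKM in DENND5A-KD1 and DENND5A-KD2 against 26.2 and 40.5 in AVL9-KD1 and AVL9-KD4 (-1.68 ± 0.23, adjusted p = 0.0084). ISG15, a ubiquitin-like modifier, had 21.5 and 28.2 against 61.5 and 83.8 (-1.51 ± 0.19, adjusted p = 0.0064). OASL, of the oligoadenylate synthetase family, had 0.448 and 0.589 against 3.48 and 2.72 (-1.43 ± 0.18, adjusted p = 0.0056). All 3 had both AVL9-KD libraries above all 3 WT libraries.

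The list mean was 3.60 and 3.79 in DENND5A-KD, 4.202 and 4.403 in AVL9-KD and 2.98 to 3.43 in WT at day 4. At day 0 the order was the other way, 3.55 and 3.74 in DENND5A-KD against 3.29 and 3.13 in AVL9-KD, with a median difference of 0.42. ISG15 had 25.8 and 24.2 FPKM in DENND5A-KD against 17.4 and 16.2 in AVL9-KD at day 0, and its change between the days was -2.06 ± 0.27 with an adjusted p of 0.054. No member's change between the days was called. Without DENND5A-KD1 no member was called at day 4 and the median was -0.46, and without AVL9-KD4 5 were called.

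NF-kB targets and cytokines had the lowest median among the lists with at least 10 tested members. Of 16 tested, 6 were called lower and none higher, 2 in all 3 scalings, with a median of -0.88. The shares of all genes called lower were 14.1% and 3.64%, with a median of -0.25. PTGS2, the inducible cyclooxygenase COX-2, had 3.29 and 11.2 FPKM in DENND5A-KD against 98.2 and 72.7 in AVL9-KD (-3.56 ± 0.41, adjusted p = 0.0052). WT had 10.5 to 27.3. The same gene had 23.6 and 29.1 against 202 and 174 at day 0 (-2.79 ± 0.41, adjusted p = 0.020), so its difference was present at seeding, and it kept its call without DENND5A-KD1 (-2.81, adjusted p = 0.0080).

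NFKBIA, the inhibitor that NF-kB itself induces, had 7.27 and 11.5 FPKM in DENND5A-KD against 30.2 and 22.1 in AVL9-KD (-1.40 ± 0.28, adjusted p = 0.019). CSF2, the cytokine GM-CSF, had 1.53 and 2.97 against 20.1 and 6.66 (-2.01 ± 0.48, adjusted p = 0.029), and under median-ratio scaling its adjusted p was 0.059. The AVL9-KD lines were far from each other for CSF2. Against the shared WT libraries the list's median difference was -0.18 for DENND5A-KD and 0.75 for AVL9-KD. The count of 6 was 1 without DENND5A-KD1 and 2 without AVL9-KD1.

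Targets of YAP and TAZ, the effectors of the Hippo pathway, were partly lower in DENND5A-KD. Of 20 tested, 6 were called lower and none higher, 4 in all 3 scalings, with a median of -0.63. Among all genes 14.1% were called lower, 3.64% in all 3 scalings, with a median of -0.25. ANKRD1, a muscle ankyrin repeat protein used as a YAP readout, had 0.571 and 2.66 FPKM against 6.77 and 11.2 (-2.02 ± 0.39, adjusted p = 0.017). F3, the coagulation initiator tissue factor, had 47.0 and 58.2 against 154 and 190 (-1.69 ± 0.17, adjusted p = 0.0029). GADD45A, a growth arrest and DNA damage gene, and AMOTL2, an angiomotin that restrains YAP, differed by -1.17 and -1.09. WT had 34.98 to 46.6 FPKM of F3, below both DENND5A-KD libraries. Without DENND5A-KD1 the list had 1 call and a median of -0.42.

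The TGF-beta, activin and BMP list moved in both directions. Of 20 tested, 4 were called higher and 2 lower, 3 and 2 in all 3 scalings, with a median of -0.16. Among all genes 2.81% were called higher and 14.1% lower, and 2.72% and 3.64% in all 3 scalings. INHBA, the activin A subunit, had 1.25 and 1.69 FPKM in DENND5A-KD against 9.58 and 9.20 in AVL9-KD (-2.08 ± 0.14, adjusted p = 0.00049). FSTL1, a secreted follistatin-like protein, had 34.9 and 33.7 against 13.4 and 10.4 (1.46 ± 0.29, adjusted p = 0.018), and WT had 3.61 to 6.44, below both. ID3, a direct BMP target, had 19.1 and 33.9 against 10.4 and 9.98 (1.25 ± 0.22, adjusted p = 0.015), with 17.0 to 22.1 in WT. The activin subunit was thus higher in AVL9-KD while the BMP target was higher in DENND5A-KD. Without DENND5A-KD1 1 call in each direction was made, and without AVL9-KD4 2 in each.

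Of 18 tested p53 targets, 7 were called lower and none higher, 2 in all 3 scalings, with a median of -0.42. For all genes the shares called lower were 14.1% and 3.64%, and the median was -0.25. PLK2, a polo-like kinase induced by p53, had 5.35 and 10.3 FPKM in DENND5A-KD against 49.0 and 34.0 in AVL9-KD (-2.31 ± 0.38, adjusted p = 0.012). AEN, an exonuclease of the apoptotic response, had 4.57 and 4.79 against 10.7 and 12.7 (-1.15 ± 0.20, adjusted p = 0.013). BAX and CCNG1, of apoptosis and growth arrest, differed by -0.95 and -0.85 and missed the threshold under median-ratio scaling, with adjusted p of 0.051 and 0.063. Without DENND5A-KD1 no member of the list was called, without AVL9-KD1 4 and without AVL9-KD4 3.

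ERK feedback and EGF family genes had 5 of 22 called lower, 2 in all 3 scalings, with a median of -0.44, beside 14.1% and 3.64% of all genes. ERRFI1, an inhibitor of the EGF receptor, had 9.95 and 19.5 FPKM against 58.5 and 43.5 (-1.78 ± 0.30, adjusted p = 0.012). PHLDA1, induced by growth factors, had 9.94 and 13.6 against 31.1 and 33.6 (-1.40 ± 0.24, adjusted p = 0.013). Of 17 tested AP-1 and immediate early genes, 6 were called lower as deposited and none in all 3 scalings; MYC had 30.5 and 50.4 against 91.6 and 72.6 (-1.04 ± 0.26, adjusted p = 0.033, and 0.061 under median-ratio scaling). JAG1, a Notch ligand, was called lower in all 3 scalings (-1.19 ± 0.17, adjusted p = 0.0084), the 1 called gene of 9 tested in the Notch list, with a list median of -0.29. In the Wnt list 11 of 15 members lay above the median of all genes and the list's median was 0.12. Its 1 called member, the ligand WNT7A, went the other way (-1.32 ± 0.30, adjusted p = 0.025), and its difference was -0.80 (adjusted p = 0.14) without DENND5A-KD1. Without DENND5A-KD1 no member of these 4 lists was called.

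The other genes among the 12 largest differences towards AVL9-KD had varied functions. TIMP3, an inhibitor of matrix metalloproteinases, had 21.6 and 56.7 FPKM in DENND5A-KD1 and DENND5A-KD2 against 235 and 148 in AVL9-KD1 and AVL9-KD4 (-2.38 ± 0.41, adjusted p = 0.013). MMP13, a collagenase, had 5.85 and 6.44 against 198 and 27.4 (-3.40 ± 0.82, adjusted p = 0.029, and 0.061 under median-ratio scaling). Its AVL9-KD lines were far from each other, and WT ran from 4.77 to 49.8. ESM1, a secreted proteoglycan, had 1.43 and 2.02 against 14.4 and 8.97 (-2.19 ± 0.31, adjusted p = 0.0084).

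CLDN16, a claudin of divalent cation transport in the thick ascending limb, had 7.26 and 13.5 FPKM against 41.1 and 75.4 (-2.37 ± 0.39, adjusted p = 0.012), and WT lay between at 15.8 to 28.2. PSMB8, a subunit of the immunoproteasome, had 0.345 and 0.742 against 12.4 and 3.47 (-2.34 ± 0.43, adjusted p = 0.015), with WT at 0.455 to 0.587, beside DENND5A-KD. DHRS2, a short-chain dehydrogenase, had 4.03 and 15.6 against 121 and 44.3 (-3.02 ± 0.65, adjusted p = 0.022). TAGLN, the actin-binding protein transgelin, had 0.394 and 1.44 against 5.36 and 14.4 (-2.42 ± 0.55, adjusted p = 0.025). No WT library exceeded the higher DENND5A-KD library for PSMB8, DHRS2 or TAGLN. Without DENND5A-KD1 PTGS2 and INHBA were the 2 of the 12 largest lower genes that were called.

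The other called actin genes went against TAGLN, and the called matrix genes went in both directions. Of 19 tested actin and contractility genes, 3 were called higher and TAGLN lower, in all 3 scalings. Among all genes 2.81% were called higher and 14.1% lower, and 2.72% and 3.64% in all 3 scalings. MYL9, a myosin light chain, had 2.09 and 3.79 FPKM in DENND5A-KD against 0.0696 and 0.864 in AVL9-KD (1.45 ± 0.31, adjusted p = 0.022), and FLNA, which crosslinks actin, had 95.3 and 103 against 75.6 and 62.4 (0.52 ± 0.13, adjusted p = 0.033). MYH10, a non-muscle myosin heavy chain, differed by 0.48 (adjusted p = 0.045). The median of this list was -0.09 as deposited and 0.19 under both other scalings. COL5A1, a fibrillar collagen chain, had 33.4 and 37.7 against 9.76 and 11.2 (1.67 ± 0.14, adjusted p = 0.0010), with WT at 28.9 to 31.9. It was the 1 of 17 collagen, laminin and basement membrane genes called higher, while 4 were called lower as deposited and none of these in all 3 scalings. LAMA3, a laminin chain, was among those 4, at -1.21.

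Mesenchymal markers as a list stood at the median of all genes, at -0.27, with members from -2.38 to 1.68 and 5 of 11 above that median, and 4 were called lower as deposited and none higher. CDH2, the mesenchymal N-cadherin, had 2.81 and 4.76 FPKM in DENND5A-KD against 18.9 and 12.1 in AVL9-KD (-1.78 ± 0.29, adjusted p = 0.012). SNAI2, a repressor of epithelial genes, had 2.57 and 3.53 against 5.83 and 5.67 (-0.75 ± 0.16, adjusted p = 0.021). Both were called in all 3 scalings, and with TIMP3 they made up the 3 markers that were. The shares of all genes called lower were 14.1% as deposited and 3.64% in all 3 scalings. SNAI1, of the same family as SNAI2, had an adjusted p of 0.030 as deposited and 0.064 under median-ratio scaling.

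Lists on epithelial architecture had medians from -0.30 to -0.08, on both sides of the -0.25 of all genes, and the transcription factor list below stood lower. Of 21 adherens junction and desmosome genes 2 were called lower, CDH2 (-1.78) in all 3 scalings and PKP2 (-0.80) as deposited only, with a median of -0.23. Among 18 tight junction and claudin genes CLDN16 alone was called, and the median was -0.08. Of 14 polarity genes 2 were called as deposited and none in all 3 scalings: PARD6B (-0.61) and PRKCI (-0.52), which together form a kinase complex at the apical border. Apical and exocytic trafficking had 1 of 23 called and apical membrane and lumen 1 of 11, EZR (-0.80), the linker of microvilli to actin. Of 32 primary cilium genes 2 were called lower, DYNC2H1 (-0.61) and BBS2 (-0.54), neither in all 3 scalings. The kidney and epithelial transcription factors had 9 of 30 called lower as deposited and 1 in all 3 scalings, TFAP2B (-0.88 ± 0.17, adjusted p = 0.017), with a median of -0.42. Beside all these lists, 14.1% of all genes were called lower, and 3.64% in all 3 scalings.

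Calls in the metabolic lists are read against the 14.1% of all genes called lower and the 2.81% called higher. Of 21 cholesterol synthesis genes 1 was called, MSMO1, a sterol oxidase, with 23.8 and 23.4 FPKM in DENND5A-KD against 13.7 and 8.13 in AVL9-KD (1.09 ± 0.30, adjusted p = 0.041). The list's median was 0.00, above that of all genes. Of 20 glycolysis and hypoxia genes 3 were called lower and VEGFA, the angiogenic growth factor, in all 3 scalings (-1.38 ± 0.29, adjusted p = 0.021). That list's median of -0.59 became 0.05 without DENND5A-KD1, and DENND5A-KD1 lay below DENND5A-KD2 by a median of 1.07 in its members. Of 19 nuclear respiratory chain genes 4 were called lower as deposited, with a median of -0.37, and 1 in all 3 scalings, NDUFS3, a subunit of complex I (-0.65 ± 0.15, adjusted p = 0.027).

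**Figure D4:**
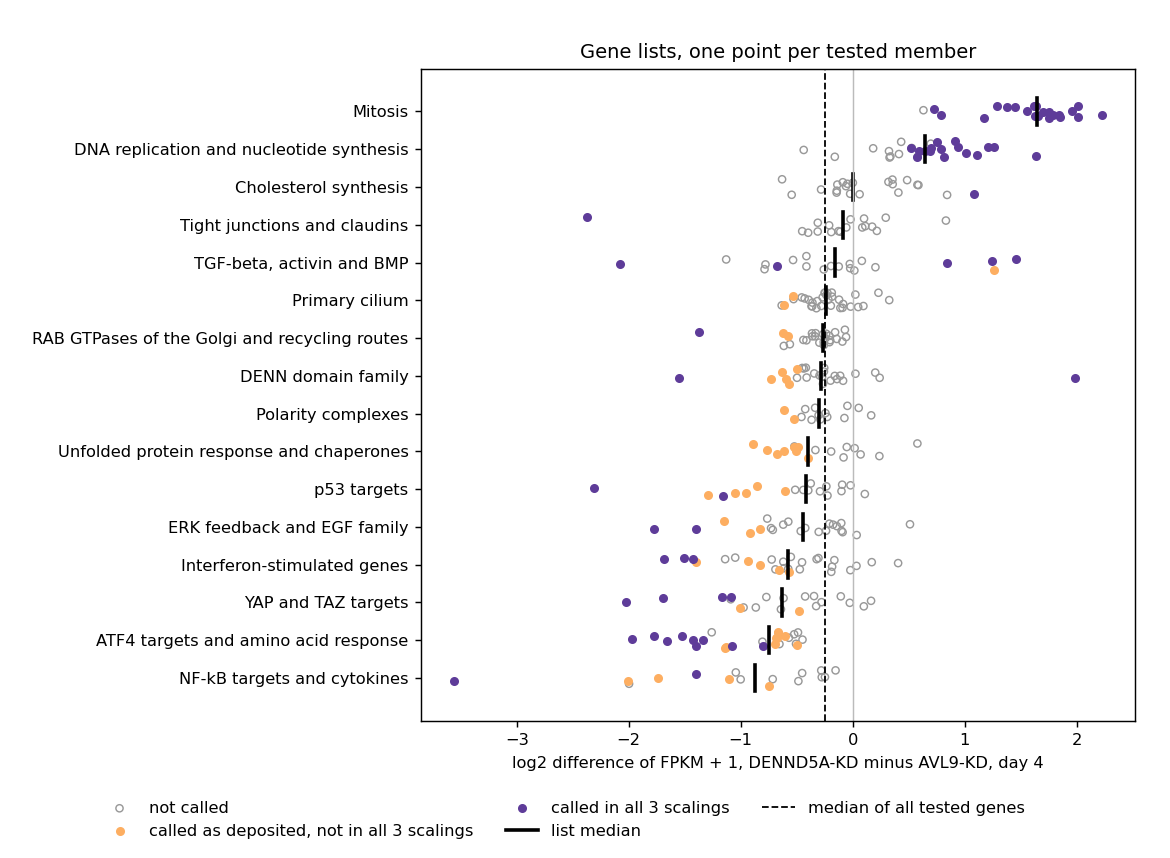
Log2 difference, DENND5A-KD minus AVL9-KD at day 4 (horizontal axis), of each tested member of 16 gene lists (vertical axis, ordered by median); black bars are list medians and the dashed line is the median of all tested genes, -0.25. The mitosis list lies wholly to the right of zero with a median of 1.65, and the ATF4 and NF-kB lists to the left with -0.75 and -0.88.

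Beyond the 2 targets the DENN family itself differed little. Of 26 tested members 1 was called higher (AVL9) and 6 lower, and in all 3 scalings AVL9 and DENND5A were the called members. Among all genes 2.81% were called higher and 14.1% lower. MADD, a regulator of RAB3 and RAB27, had 4.15 and 4.64 FPKM in DENND5A-KD against 7.34 and 6.98 in AVL9-KD (-0.60 ± 0.12, adjusted p = 0.018, and 0.059 under median-ratio scaling). SMCR8, a partner of C9orf72, had 4.26 and 4.30 against 6.205 and 7.48 (-0.57 ± 0.13, adjusted p = 0.025, and 0.11 under median-ratio scaling). DENND5B, the closest relative of DENND5A, had 1.83 and 2.19 against 2.07 and 3.74 (-0.34 ± 0.30, adjusted p = 0.42), and its groups overlapped. The family's median was -0.28, near that of all genes.

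Among 25 RAB GTPases and effectors of the Golgi and recycling routes, 3 were called lower and 1 of them in all 3 scalings, shares near the 14.1% and 3.64% of all genes. That gene was RAB39B, one of the GTPases on which DENND5A acts: it had 3.14 and 4.36 FPKM in DENND5A-KD1 and DENND5A-KD2 against 12.2 and 10.2 in AVL9-KD1 and AVL9-KD4 (-1.37 ± 0.17, adjusted p = 0.0056). WT had 2.49 to 3.77, at the DENND5A-KD level, so the AVL9-KD libraries stood apart. At day 0 RAB39B had 2.35 and 2.70 against 3.49 and 2.79 (-0.23, adjusted p = 0.46), and without DENND5A-KD1 its day 4 difference was -1.18 with an adjusted p of 0.061. Its relative RAB39A had 5.72 and 6.11 against 9.19 and 6.72 (-0.36, adjusted p = 0.14).

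RAB11FIP2, an effector of RAB11 in recycling, and RAB5A, of early endosomes, were called as deposited (-0.62 and -0.57, adjusted p = 0.014 and 0.021). RAB11FIP2 kept its call under quantile normalization (adjusted p = 0.040) and not under median-ratio scaling (0.058), and RAB5A under neither (0.057 and 0.058). RAB11A, RAB8A, RAB10 and RAB25, which serve apical delivery and recycling, had differences of -0.26, -0.21, -0.07 and -0.20, none called. The list's median was -0.26.

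Some genes were listed at 0 in a library, so no fold is given for them. SNORA8 and SNORA14, small nucleolar RNAs that guide RNA modification, were listed at 0 in both DENND5A-KD libraries and had 8.30 and 19.98, and 6.79 and 12.2 FPKM in AVL9-KD1 and AVL9-KD4. In WT, SNORA14 was listed at 0 in all 3 libraries and SNORA8 in 1. Such short RNAs are poorly captured by an mRNA library, and how many reads stand behind their FPKM was not tested. TGM2, a transglutaminase that crosslinks proteins, was listed at 0 in DENND5A-KD1, and had 1.22 FPKM in DENND5A-KD2 against 6.11 and 8.95 in AVL9-KD. Its WT values were 0.0769 to 0.690.

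The same 4 lines at day 0, in other libraries, show which differences were present before seeding. At day 0, 165 genes were called (1.5%), 67 higher in DENND5A-KD (0.611%) and 98 lower (0.894%). Called on both days were 106 genes, 103 in the same direction, which is 5.54% of the day 4 calls and 62.4% of the day 0 calls. They include the targets, PTGS2, INHBA, CTSK, FAM171A1, LNPEP and COL5A1; COL5A1 had 20.1 and 19.1 FPKM against 2.89 and 3.49 at day 0 (2.30 ± 0.14, adjusted p = 0.00038). EGR1, IL1RL1 and TCP11L1 were called in opposite directions, and TCP11L1 was named after its values were seen. Across all tested genes the day 4 and day 0 differences had a Pearson correlation of 0.46, a description over 10965 genes that share the 4 lines and are not independent. No mitosis gene was called at day 0, where the list's median was -0.11.

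**Figure D5:**
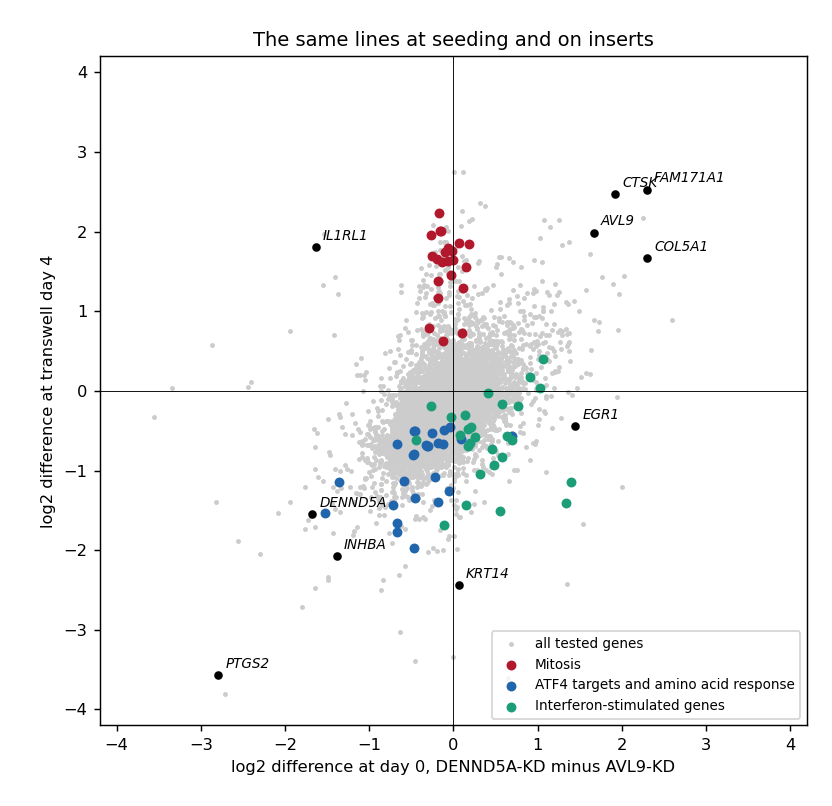
Log2 difference, DENND5A-KD minus AVL9-KD, of each tested gene at day 0 (horizontal axis) and at day 4 on inserts (vertical axis), with 3 lists in colour and named genes in black; 3 genes lie outside the axes. Mitosis genes stand near 0 at day 0 and above 0 at day 4, while PTGS2, CTSK and FAM171A1 lie far from 0 on both days.

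The test of the change itself, the day 4 difference minus the day 0 difference, called 6 genes (0.0547%), 2 towards DENND5A-KD (0.0182%) and 4 towards AVL9-KD (0.0365%), with 1203 at an unadjusted p under 0.05. MCM5 was close in all lines at day 0, with 42.8 and 44.9 FPKM in DENND5A-KD and 47.1 and 51.8 in AVL9-KD, and apart at day 4 (change 1.43 ± 0.18, adjusted p = 0.048). IL1RL1, the interleukin-33 receptor, had 6.86 and 7.32 FPKM in DENND5A-KD against 26.0 and 22.4 in AVL9-KD at day 0, and 17.8 and 8.52 against 3.78 and 2.07 at day 4 (change 3.44 ± 0.43, adjusted p = 0.048). The order of the groups thus turned between the days. MAD2L1 came next among the genes with a positive change, at 1.93 ± 0.26 with an adjusted p of 0.055.

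KRT14, a keratin of basal cells, had 4.57 and 6.30 FPKM in DENND5A-KD and 4.82 and 5.39 in AVL9-KD at day 0, and 0.0550 and 0.125 against 4.64 and 5.17 at day 4 (change -2.50 ± 0.24, adjusted p = 0.011). WT had at most 0.403 at day 4. Of the 2 knockdowns, AVL9-KD alone stayed near its day 0 level. Keratin genes are alike in sequence, and reads shared among them may make this value uncertain. EGR1, an immediate early transcription factor, had 46.5 and 47.7 FPKM in DENND5A-KD against 16.4 and 16.9 in AVL9-KD at day 0, and 74.8 and 90.0 against 104 and 120 at day 4 (change -1.89 ± 0.18, adjusted p = 0.011). Its day 4 difference of -0.44 had an adjusted p of 0.048 as deposited and 0.30 and 0.32 under the other scalings. SNORA14 was listed at 0 in all day 0 libraries. The sixth gene, ENSCAFG00000028447, has no symbol of its own in the files, was identified after its values were seen and changed by -5.89 ± 0.54.

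The count for the change depended on how the lines were modelled. With the line as a random block, for which the fit estimated a correlation of 0.386 between libraries of a line, 188 of the 10965 tested genes were called. Among them were 11 of 22 mitosis genes, 9 of 27 replication genes and 8 of 27 interferon-stimulated genes. With the line as a fixed term no gene was called, and 1792 had an unadjusted p under 0.05. The mitosis list's median change was 1.73, the interferon-stimulated list's -0.86 and that of all genes -0.12.

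The labelled cell type was checked against its markers. All 10 kidney epithelial markers with a symbol of their own, among them CDH1, EPCAM and PAX8, had at least 1 FPKM, and their summed level was 747 to 936 FPKM in DENND5A-KD and 1013 to 1137 in AVL9-KD. ESRP1 and GRHL2 were called lower as deposited (-0.44 and -0.52) and not under the other scalings. None of 11 leukocyte markers reached 1 FPKM in any of the 4 libraries, and 6 were at 0 in all of them. Of 10 fibroblast markers 8 were at 0 in all 4; the 1 above 1 FPKM, the matrix protein FBLN1, had 8.08 and 9.07 in DENND5A-KD against 3.99 and 2.34 in AVL9-KD (1.23 ± 0.26, adjusted p = 0.021). Of 10 endothelial markers FLT1 alone passed 1 FPKM, at 26.1 and 27.6 against 18.4 and 22.4, and was not called (0.39, adjusted p = 0.20). The part of FBLN1-expressing cells or of the lower depth of AVL9-KD4 in the differences above was not tested.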

How the data were processed

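Per the labels' protocols, RNA of MDCKII cells was made into stranded mRNA libraries, and the submitters' processing notes name HISAT2 2.1.0, Cufflinks 2.2.1 and the builds canFam3 and CanFam3.1. The authors deposited 1 table of FPKM per library; how strand and repeats were handled is not given in the sources used here. FPKM are not counts, so no count test was run. From these values log2(FPKM + 1) was computed, and limma 3.58.1 (R 4.3.3, trend, moderated 2-sided test) was fitted to the 10 knockdown libraries in 5 groups, so that 5 residual degrees of freedom were shared. P-values were adjusted by Benjamini-Hochberg over the 10965 genes and called at 0.05. The files give no totals; relative depth came from steps of FPKM under 0.15. The script was tested on simulated data. Alternatives were quantile and median-ratio scaling, a pseudocount of 0.1, no filter, other sets of libraries, the line as a block, and leaving out each library.

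The comparison and all 46 gene lists were chosen with earlier results of these data known. Named were the 2 targets, the 12 largest called differences a direction (no overlap, at least 5 FPKM in the higher group, above 0 in all 4 libraries), up to 3 a direction listed at 0, up to 4 called members a list with the smallest adjusted p, and up to 3 a direction for the change. Exceptions are stated where they occur. Genes with a missing or shared symbol (1329 of those tested) were tested and not named. Libraries of one line carry the same number on each day. The same-line deviations correlated by 0.43 between days 0 and 4 in AVL9-KD and by 0.12, 0.13 and -0.02 between pairs of days in DENND5A-KD. The pairing comes from the line names in the labels.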

Additional observations from a re-analysis of the deposited data

Results flagged for a closer look

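The difference between the knockdowns was itself different on days 0 and 4 by the interaction test for 5 genes with a symbol of their own. The libraries of the 2 days share the 4 lines, and with the line as a fixed term no gene was called (smallest adjusted p = 0.11). IL1RL1 changed by 3.44 (adjusted p = 0.0482), from lower to higher in DENND5A-KD, and MCM5 by 1.43 (adjusted p = 0.0482), from near equal to higher. EGR1 changed by -1.89, KRT14 by -2.50 and SNORA14 by -3.34 (adjusted p = 0.0111 for each, limma), all towards AVL9-KD. The value of SNORA14 depends on the pseudocount, since 6 of its 8 libraries on the 2 days are listed at 0. In each gene both lines of a knockdown stood on the same side of the other knockdown at day 4, as in 62.2% of all tested genes. The test that picked these genes uses the same day 4 libraries, so this is no separate result.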

How the results depend on the processing

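The day 4 count of 1859 genes was 1263 under quantile normalization and 985 under median-ratio scaling, and 1 with the compared groups alone; the part of calls that were higher in DENND5A-KD went from 16.6% to 51.9% and 59.5% under the scalings. Leaving out 1 day 4 library gave 28 to 1838 genes, and leaving out either day 0 library of DENND5A-KD, which enters only through the shared spread, gave 1219 and 1218. The day 0 count of 165 was 290 under median-ratio scaling, 98 with no filter, 492 with all 29 libraries and 103 with the groups alone, and 5 to 193 when 1 day 0 library was left out. The count of 6 for the change was 2 under quantile normalization, 3 with a pseudocount of 0.1 and 177 with all 29 libraries, and 0 to 168 when 1 library was left out; the settings with 0 had 1031 and 721 genes at an unadjusted p under 0.05. With the line as a replicate block the counts were 1828 at day 4 and 144 at day 0, and for the change 188, or 0 with the line as a fixed term; the lines are nested in the knockdowns, so the block cannot pair the day 4 groups. The cause of these shifts was not tested.

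Of 133 called named genes, 95 kept their call under quantile normalization, 75 under median-ratio scaling, 129 with a pseudocount of 0.1, 99 with no filter, 126 with all 29 libraries, 130 with the line as a block and none with the groups alone. Without DENND5A-KD1, DENND5A-KD2, AVL9-KD1 and AVL9-KD4 in turn, 17, 113, 88 and 77 kept it. None reversed its direction under these settings. Depth limits low genes most in AVL9-KD4.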
